A study of Mus musculus with 16 samples.

Results

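Mitochondrial carriers are the transport proteins of the inner mitochondrial membrane, and their transcripts were examined here in the heart apex of 16 male mice. The members are the protein-coding genes of the count matrix whose mouse symbol starts with Slc25a, together with Ucp1 and Ucp2. This gave 49 genes of 55573 in the matrix, of which 41 had at least 10 counts in 4 or more mice and were analysed, beside 16971 genes of the whole matrix that met the same minimum. All 41 also passed the filter of the statistical model.

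Each mouse had been injected on postnatal day 1 with AAV9, a virus vector that reaches the heart, and the cTnT promoter of the vector restricts expression to cardiomyocytes. The vector carried either GFP (AAV9-GFP) or the mouse long noncoding RNA Cardinal (AAV9-Cardinal). Every mouse, controls included, had thus received a virus and an added transcript, which is foreign to the mouse only for GFP. Each vector was studied after sham surgery and after transverse aortic constriction (TAC), in which a ligature narrows the aorta and the left ventricle pumps against raised pressure, and the 4 groups of 4 mice were collected 4 weeks after surgery. Strain and age at surgery were not given in the sources used here. The transcript that the vector adds, listed as Gm12295, lay between 3.42 and 7.24 CPM (counts scaled to a common library size) in the 8 AAV9-GFP hearts and between 18.3 and 93.9 CPM in the 8 AAV9-Cardinal hearts, with no overlap.

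The inner membrane is closed to most metabolites, and each carrier of this family exchanges or imports particular solutes across it. The adenine nucleotide translocases send ATP out to the contractile proteins in exchange for ADP, and the phosphate carrier brings in the phosphate that ATP synthase joins to it. Other members carry fatty acyl groups bound to carnitine, the reducing equivalents of the malate-aspartate shuttle, citrate, amino acids, coenzymes and iron, and the uncoupling proteins belong to the same fold. A working heart depends on this traffic for nearly all of its ATP.

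Totals were between 16441997 and 21904589 counts per mouse, and 3 counts, the level taken as the floor, corresponded to 0.137 to 0.182 CPM, which covers counting error only. Mitochondrially encoded genes took 30.3% to 34.0% of the counts. Each of the 24 pairs of mice within a group differed by more than sampling noise (chi-square per degree of freedom 5.49 to 16.4), so each mouse was kept as a separate sample. Summed markers of cardiomyocytes (8 genes) lay between 46422 and 49041 CPM in AAV9-GFP sham hearts and between 35494 and 42499.7 CPM in AAV9-GFP TAC hearts, and between 44585 and 49007 CPM and between 42214 and 46943 CPM in the AAV9-Cardinal sham and TAC hearts. No cardiomyocyte marker was at 0. Summed fibroblast markers (7 genes) were 493 to 554 CPM and 859 to 1109 CPM in the AAV9-GFP sham and TAC hearts, and 480.4 to 529 CPM and 499.8 to 931 CPM in the AAV9-Cardinal ones. The highest AAV9-Cardinal TAC value belonged to replicate 1, while the other 3 mice of that group were at 499.8 to 544 CPM, and replicate 1 also had the highest Cardinal level (93.9 CPM). In replicate 4 of the AAV9-GFP sham group, summed smooth muscle markers (4 genes) reached 249 CPM, against 71.2 to 82.8 CPM in the other 3. Results that turned on either library are given without it.

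Of the 4 carriers that passed the threshold in TAC against sham hearts with both vectors, 3 had a promoter in the RefSeq table (GRCm38.p6), and their windows from 250 bases before to 50 bases after the annotated start are shown because these genes moved in both sets of mice. Capitals mark the CCAAT box (CCAAT or ATTGG), the GC box (GGGCGG or CCGCCC) and the nuclear receptor half-site with a leading A (AAGGTCA or TGACCTT), and no match shared a base with another. Slc25a42 is read from chr8:70212232-70212531 on the minus strand, Slc25a34 from chr4:141623785-141624084 on the minus strand and Slc25a5 from chrX:36795347-36795646 on the plus strand. In the annotation used for the gene loci, Slc25a5 starts at chrX:36795651, so its whole window lies before that start.
Slc25a42: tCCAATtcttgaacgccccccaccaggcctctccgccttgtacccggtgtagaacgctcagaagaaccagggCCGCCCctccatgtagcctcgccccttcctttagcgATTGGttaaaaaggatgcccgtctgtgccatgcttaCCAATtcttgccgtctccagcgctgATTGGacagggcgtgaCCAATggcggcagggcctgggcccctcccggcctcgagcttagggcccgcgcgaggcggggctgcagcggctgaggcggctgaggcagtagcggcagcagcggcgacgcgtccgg
Slc25a34: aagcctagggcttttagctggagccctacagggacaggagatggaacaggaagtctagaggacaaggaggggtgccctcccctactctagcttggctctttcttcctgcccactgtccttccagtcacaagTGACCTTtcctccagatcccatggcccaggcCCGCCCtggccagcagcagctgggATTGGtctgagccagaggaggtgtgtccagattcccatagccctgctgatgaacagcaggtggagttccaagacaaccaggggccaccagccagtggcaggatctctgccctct
Slc25a5: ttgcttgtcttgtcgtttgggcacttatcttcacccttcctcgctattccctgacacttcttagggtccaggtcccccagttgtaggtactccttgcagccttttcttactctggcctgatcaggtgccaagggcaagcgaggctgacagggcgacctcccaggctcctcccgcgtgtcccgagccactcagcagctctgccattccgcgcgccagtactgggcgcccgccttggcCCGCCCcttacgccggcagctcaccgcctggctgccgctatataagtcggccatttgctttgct
The Slc25a42 window held 5 CCAAT boxes and 1 GC box, the Slc25a34 window 1 of each and 1 half-site, and the Slc25a5 window 1 GC box. Promoters of 32 of the 41 carriers were in the table, as 41 windows, some of which belong to the same gene. The GC box was in 90.2% of these windows against 35.7% of all 32851 windows of the table, the CCAAT box in 51.2% against 37.4%, and the E-box CACGTG in 19.5% against 7.15%. Slc25a34 was the only carrier of the 32 with the AAGGTCA half-site, which 4.72% of all windows hold. These matches describe letters in a window and were not tied to any bound factor.

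Carrier transcripts covered a wide range of levels in AAV9-GFP sham hearts. Slc25a4, the heart and muscle adenine nucleotide translocase (ANT1), stood highest at 1227 CPM per kilobase of exon, followed by the phosphate carrier Slc25a3 at 178, the oxoglutarate carrier Slc25a11 at 136 and the second translocase Slc25a5 (ANT2) at 60.0 CPM per kilobase. Slc25a34, a carrier of unknown substrate, the aspartate/glutamate carriers Slc25a13 and Slc25a12, the carnitine/acylcarnitine carrier Slc25a20 and Slc25a39, which is needed for glutathione import, lay between 21.4 and 35.2 CPM per kilobase. The remaining 32 carriers were at or below 10.5 CPM per kilobase. Slc25a4 alone gave 53.9% ± 1.25 (SD, n = 4) of all carrier counts in AAV9-GFP sham hearts and Slc25a3 18.4% ± 0.862. At the low end were Slc25a53 at 0.112 CPM per kilobase and the testis translocase Slc25a31 at 0.0909 CPM per kilobase, the latter with a largest count of 11 in any mouse.

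**Figure D1:**
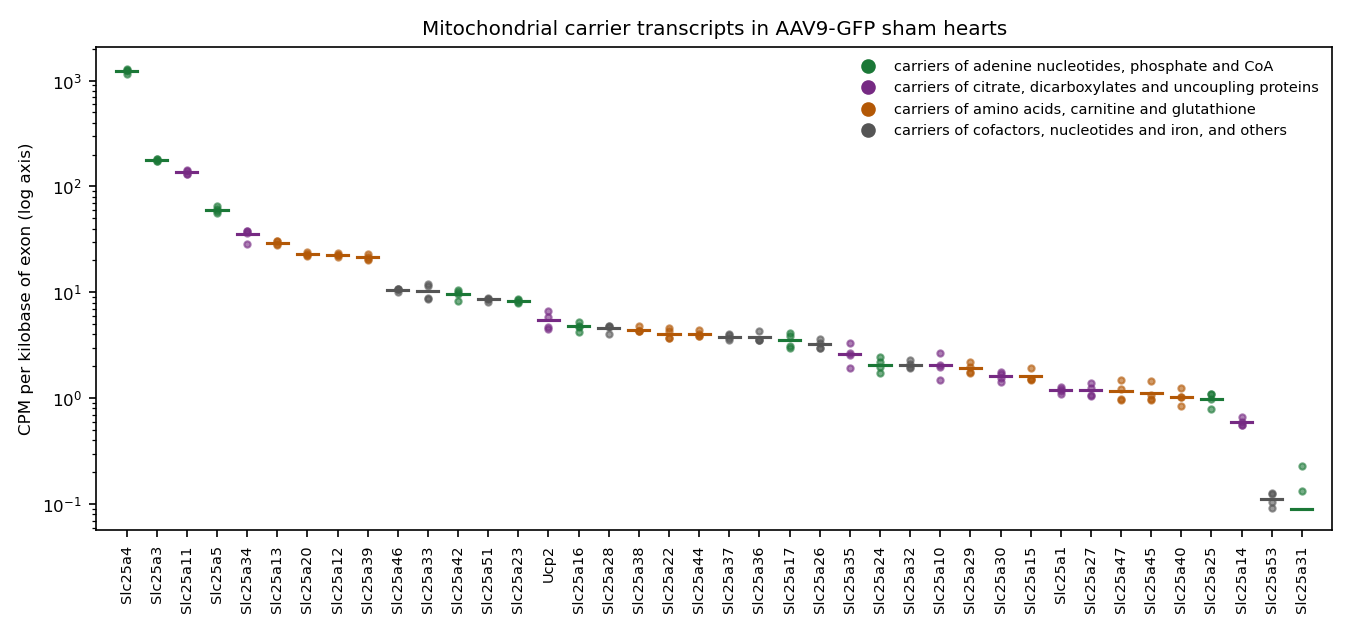
Levels of 40 carriers in AAV9-GFP sham hearts, in CPM per kilobase of exon on a log axis, ordered from high to low. Points are the 4 mice (values of 0, which occur for Slc25a31 in 2 mice, are not drawn), the bar is their mean and the color is the substrate list; Slc25a4 stands apart at 1227 CPM per kilobase.

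Under the minimum were 8 carriers. No count at all was found in the 16 mice for Ucp1, the uncoupling protein of brown fat, Slc25a21 (oxodicarboxylates), Slc25a41, Slc25a48 and Slc25a54, which leaves room for levels up to the 3-count floor. Slc25a2, an ornithine carrier, and Slc25a43 had a largest count of 5. The glutamate carrier Slc25a18 reached 10 counts in 2 mice. Among the brown adipocyte markers, Elovl3 was at 0 in all 16 mice and Plin1 in the 12 outside the AAV9-Cardinal TAC group. The 5 markers together summed to 12.6 to 23.3 CPM.

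The first comparison asked how TAC changed the carriers in hearts with the control vector. 11 of the 41 carriers passed the threshold of 0.05 on the adjusted p of the quasi-likelihood test in edgeR, from which every adjusted p without another tool's name comes; this is 26.8% of them, against 17.4% of the 16857 genes tested. 8 carriers were lower after TAC, among them the phosphate, oxoglutarate, CoA and carnitine carriers, and 3 were higher, Slc25a5, Slc25a23 and Slc25a45. Over all genes, 8.92% were called lower and 8.49% higher. The 11 changes lay between a log2 fold change of -0.54 and 0.54, and the median over the 41 carriers was -0.09 against 0.0050 over all genes. The mice did not overlap for 12 carriers (29.3%) against 20.3% of all genes. In the same comparison 6 of 8 cardiomyocyte markers were called lower (median log2 fold change -0.30) and 4 of 7 fibroblast markers higher (median 1.04). Higher were also 2 of 6 endothelial (median 0.23) and 1 of 6 macrophage markers (median 0.25). The smooth muscle markers were mixed, with 1 of 4, Cnn1, called higher, Acta2 at -0.69 and not called, and a median of -0.07. Of the 5 brown adipocyte markers, 2 were tested, of which Dio2 was higher and Cidea, at 0.16, was not called. Of the 4 skeletal muscle markers Myh4 and Myh2 were at 0 in every mouse. In whole tissue, fewer cells of a type and less RNA per cell cannot be told apart, and the part of the marker shift in the carrier values was not tested.

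With AAV9-Cardinal, TAC was compared with sham in 8 other mice. 6 of 41 carriers passed (14.6%), against 6.48% of all genes, with 4 lower (3.38% of all genes) and 2 higher (3.1%). The median was -0.06 over the carriers and -0.00047 over all genes, and the mice did not overlap for 7 carriers (17.1%) against 13.7% of all genes. 1 of 8 cardiomyocyte markers, Pln, was called lower, and Postn, 1 of 7 fibroblast markers, and Dio2 were called higher. Cidea, the other brown adipocyte marker tested, was not called. Slc25a42, Slc25a34, Slc25a37 and Slc25a5 were called in the same direction with both vectors, which is 36.4% of the AAV9-GFP calls and 66.7% of the AAV9-Cardinal calls. Of the 11 carriers called with AAV9-GFP, 10 had a fitted change of the same sign with AAV9-Cardinal. None of these shares was computed over all genes, so they do not set the carriers apart. A call with 1 vector and not with the other is not a difference between vectors, which was tested separately.

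**Figure D2:**
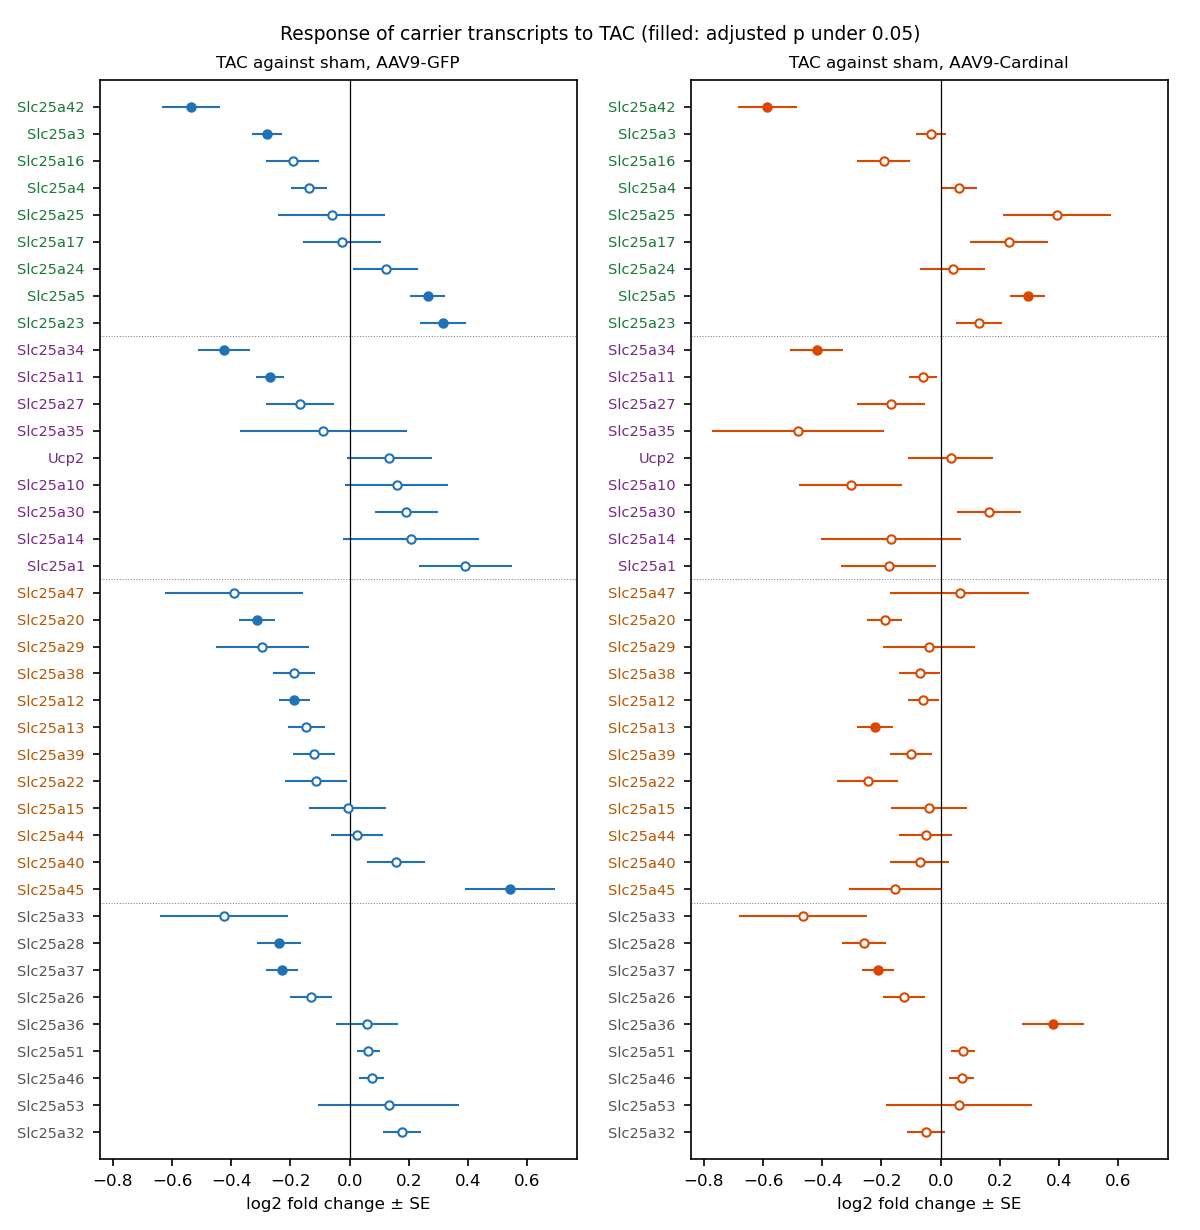
Log2 fold change of TAC against sham with its standard error for 39 carriers, with AAV9-GFP on the left and AAV9-Cardinal on the right; Slc25a31, near the floor, is not drawn. Carriers are grouped by substrate list (dotted lines) and ordered by the AAV9-GFP value, and filled points passed the threshold; Slc25a42 is the lowest of its list on both sides and Slc25a5 is filled on the right of 0 on both.

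Among the 10 measured carriers of adenine nucleotides, phosphate and CoA, 2 rose and 2 fell in AAV9-GFP TAC hearts (40%, against 17.4% of all genes called), and 1 rose and 1 fell with AAV9-Cardinal (20%, against 6.48%). The CoA carrier Slc25a42 (ENSMUSG00000002346, chr8:70184340-70212305, minus strand), whose promoter is printed above, fell with both vectors. The 4 AAV9-GFP sham mice had 62.9, 58.4, 60.6 and 49.9 CPM and the TAC mice 48.0, 34.6, 40.2 and 37.0 CPM, a log2 fold change of -0.54 (SE 0.099, adjusted p = 0.0018). AAV9-Cardinal sham mice were at 62.9, 72.7, 62.5 and 61.8 CPM and TAC mice at 46.5, 41.2, 39.7 and 45.9 CPM, a log2 fold change of -0.59 (SE 0.099, adjusted p = 0.0044). With either vector, every TAC mouse was below every sham mouse, and the 8 TAC hearts of both vectors together spanned 34.6 to 48.0 CPM. Slc25a16, which is linked to CoA supply, did not pass the threshold with either vector and lay between 18.2 and 25.3 CPM in all mice; without AAV9-GFP TAC replicate 1 it was called lower with AAV9-GFP (log2 fold change -0.27, edgeR adjusted p = 0.035). The peroxisomal carrier Slc25a17 was not called.

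The adenine nucleotide translocases differed in which passed the threshold, and the gene for the less abundant one rose with both vectors. Slc25a5 (ANT2), which most tissues use and which dominates outside muscle, was at 95.6, 93.2, 100.1 and 106 CPM in AAV9-GFP sham mice and at 107, 127, 125 and 116 CPM after TAC, a log2 fold change of 0.26 (SE 0.058, adjusted p = 0.0055). Its AAV9-Cardinal values were 93.0, 96.4, 101 and 96.8 CPM in sham mice and 116, 116, 116 and 127 CPM in TAC mice, a log2 fold change of 0.29 (SE 0.058, adjusted p = 0.0097). Both rises were larger than the spread, with every TAC mouse above every sham mouse, although the lowest AAV9-GFP TAC mouse (107 CPM) was just above the highest sham mouse (106 CPM). 33.8% of the 50-base stretches of Slc25a5 transcripts also occur in other annotated genes, most often in Gm5560, so its counts depend on how the authors treated reads with several matches. Slc25a4 (ANT1; ENSMUSG00000031633, chr8:46206797-46211284, minus strand) shares none of its stretches with another gene and had 2875, 2959.8, 3026 and 2690.4 CPM in AAV9-GFP sham mice and 2554, 2404, 2861 and 2674 CPM after TAC. Its values with AAV9-Cardinal were 2661, 2923, 2819.8 and 2874 CPM in sham mice and 2641, 3040.2, 3021 and 3064 CPM in TAC mice. The groups overlapped in both comparisons and Slc25a4 did not pass the threshold (adjusted p = 0.14 and adjusted p = 0.62). In replicate 1 of the AAV9-Cardinal TAC group it was 2641 CPM, below the other 3.

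The ratio of the translocases within each library, which does not depend on normalization, was also compared. The log2 ratio of Slc25a4 to Slc25a5 counts was 4.87 ± 0.14 (SD, n = 4) in AAV9-GFP sham and 4.47 ± 0.15 in AAV9-GFP TAC hearts, and 4.86 ± 0.052 and 4.63 ± 0.097 in AAV9-Cardinal sham and TAC hearts. The ratio was lower in every TAC mouse than in every sham mouse of the same vector, and the TAC groups of the vectors overlapped. No test was made of the ratios.

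The phosphate carrier Slc25a3 fell with the control vector. Its AAV9-GFP values were 1012, 971, 965 and 1001 CPM in sham mice and 829, 743, 853 and 827 CPM after TAC, a log2 fold change of -0.28 (SE 0.051, adjusted p = 0.0016), with no overlap. The AAV9-Cardinal mice had 911, 971, 919.9 and 965 CPM after sham and 839.9, 928, 947 and 968 CPM after TAC, which overlapped (adjusted p = 0.79). Slc25a23, a calcium-regulated exchanger of ATP-Mg for phosphate, rose in the AAV9-GFP mice, from 42.2, 44.6, 46.0 and 42.6 CPM to 55.4, 62.0, 48.3 and 52.5 CPM, a log2 fold change of 0.32 (SE 0.077, adjusted p = 0.011). Every TAC mouse was above every sham mouse. With AAV9-Cardinal it was 42.2, 43.0, 42.5 and 47.9 CPM in sham and 49.4, 41.7, 50.7 and 50.0 CPM in TAC mice, with overlap (adjusted p = 0.36). The relatives Slc25a24 and Slc25a25 ranged from 5.86 to 8.41 CPM and from 4.07 to 10.6 CPM over all mice, and neither passed the threshold.

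**Figure D3:**
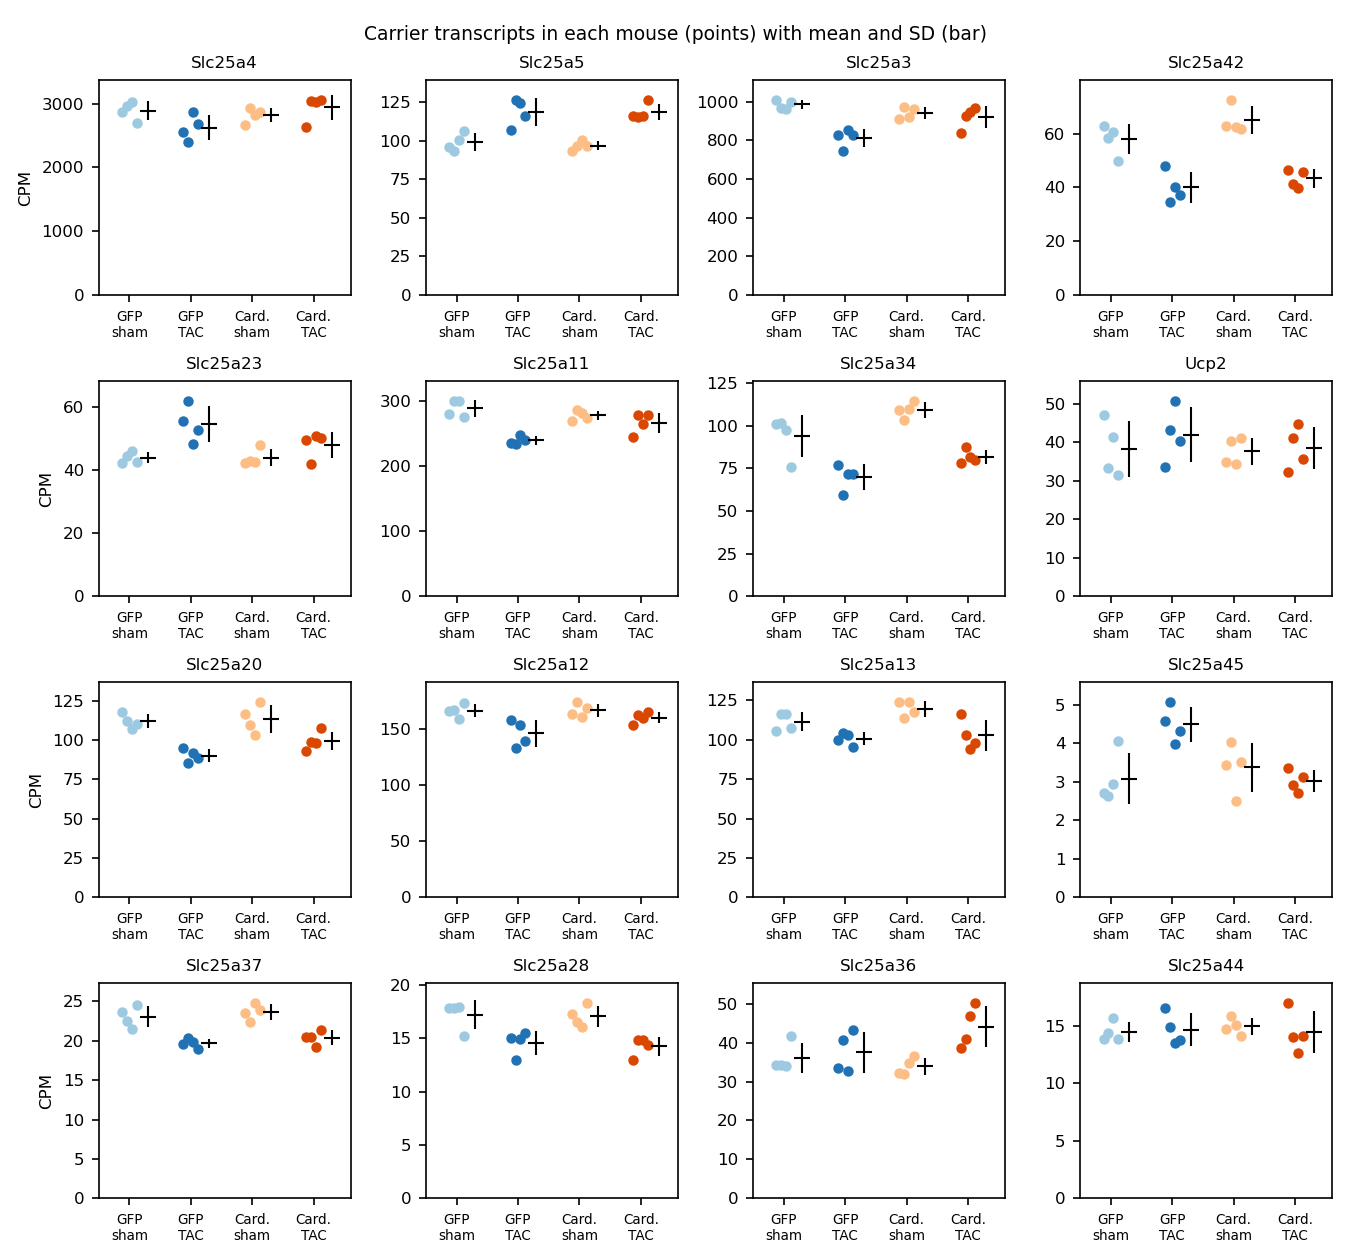
CPM of 16 carriers in each mouse (points) of the 4 groups, with the mean and SD (n = 4) beside them; each axis starts at 0. Slc25a42 and Slc25a37 are lower in every TAC than in every sham mouse with both vectors and Slc25a5 is higher, Slc25a34 is lower with an overlap through AAV9-GFP sham replicate 4, while Ucp2 and Slc25a44 overlap throughout.

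Of the 9 measured carriers of citrate and dicarboxylates and the uncoupling proteins, 2 fell and none rose in AAV9-GFP TAC hearts, and 1 fell with AAV9-Cardinal. These shares, 22.2% and 11.1%, stand beside 17.4% and 6.48% of all genes called. Slc25a34 (ENSMUSG00000040740, chr4:141618824-141623821, minus strand) had 101, 102, 97.6 and 76.1 CPM in AAV9-GFP sham mice and 77.1, 59.5, 71.8 and 71.9 CPM after TAC, a log2 fold change of -0.42 (SE 0.089, adjusted p = 0.0042). The 2 groups overlapped only because sham replicate 4 was at 76.1 CPM. AAV9-Cardinal sham mice had 109, 104, 109.9 and 115 CPM and TAC mice 78.0, 87.6, 81.8 and 80.1 CPM, a log2 fold change of -0.42 (SE 0.089, adjusted p = 0.014), with no overlap. Slc25a11, the oxoglutarate/malate carrier of the malate-aspartate shuttle, fell from 279.8, 299.6, 301 and 276 CPM to 235, 235, 249 and 240.4 CPM in AAV9-GFP mice, a log2 fold change of -0.27 (SE 0.047, adjusted p = 0.0012). All TAC mice were below all sham mice. Its AAV9-Cardinal levels were 270.0, 286, 282 and 274 CPM and 245, 278, 265 and 278 CPM, which overlapped (adjusted p = 0.51); 8.91% of its exon bases overlap Rnf167 on the other strand, and whether the counts used strand was not given in the sources used here.

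The citrate carrier Slc25a1, the uncoupling protein Ucp2 and the dicarboxylate carrier Slc25a10 did not pass the threshold with either vector. Slc25a1 was at 2.55, 2.79, 2.65 and 2.40 CPM in AAV9-GFP sham and 3.77, 4.07, 3.11 and 2.65 CPM in TAC mice (adjusted p = 0.10), and at 3.34, 2.79, 2.64 and 2.92 CPM and 3.19, 1.93, 2.33 and 2.90 CPM with AAV9-Cardinal. Without AAV9-GFP TAC replicate 7 the AAV9-GFP difference passed, with an adjusted p of 0.046 in the same edgeR test. Slc25a10 had 6.76, 9.17, 5.10 and 7.14 CPM and 8.44, 7.68, 7.79 and 7.57 CPM in the AAV9-GFP sham and TAC mice, and 9.90, 8.18, 7.74 and 7.07 CPM and 8.14, 6.02, 4.75 and 7.78 CPM in the AAV9-Cardinal ones. Ucp2 was at 47.0, 33.2, 41.3 and 31.4 CPM and 33.6, 43.2, 50.8 and 40.2 CPM, and at 34.7, 40.2, 34.3 and 41.1 CPM and 32.3, 41.1, 44.8 and 35.7 CPM, in the same order. The groups of Ucp2 and Slc25a10 overlapped in each of these comparisons. Ucp3, the muscle uncoupling protein outside the rule, had a mean of 17.3 to 30.2 CPM in the 4 groups and was not called. Slc25a14, Slc25a27 and Slc25a30, related to the uncoupling proteins, were at or below 9.50 CPM in every mouse, and Slc25a35, which shares 31.3% of its exon bases with Rangrf on the other strand, ranged from 4.56 to 13.1 CPM; none of the 4 was called.

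Carriers of amino acids, carnitine and glutathione numbered 12 measured, of which 2 fell and 1 rose in AAV9-GFP TAC hearts and 1 fell with AAV9-Cardinal (25% and 8.33%, against 17.4% and 6.48% of all genes). Slc25a20, which exchanges acylcarnitine for carnitine on the way to beta-oxidation, fell from 118, 112, 107 and 110.1 CPM to 94.9, 85.4, 91.5 and 88.2 CPM in AAV9-GFP mice, a log2 fold change of -0.31 (SE 0.060, adjusted p = 0.0023), with no overlap. With AAV9-Cardinal it was 116, 109, 103 and 124 CPM in sham and 92.9, 98.7, 98.3 and 107 CPM in TAC mice (adjusted p = 0.075); this difference passed with DESeq2 (adjusted p = 0.043) and without AAV9-Cardinal sham replicate 3 (adjusted p = 0.042). The groups overlapped there. Its partners in the carnitine shuttle, 5 genes, had 2 lower and none higher with each vector, where 8.92% of all genes were called lower with AAV9-GFP and 3.38% with AAV9-Cardinal. Cpt2, the inner carnitine palmitoyltransferase, fell by 0.34 on the log2 scale with AAV9-GFP (SE 0.060, edgeR adjusted p = 0.0013) and by 0.23 with AAV9-Cardinal (SE 0.060, adjusted p = 0.033). Carnitine acetyltransferase Crat fell by 0.44 (SE 0.053, adjusted p = 8.3e-05) and by 0.22 (SE 0.053, adjusted p = 0.025). Cpt1a, Cpt1b and Slc22a5 were not called in either comparison. The AAV9-Cardinal call of Cpt2 was lost in 6 fits that left out 1 mouse (adjusted p 0.055 to 0.11) and that of Crat in 3 (0.062 to 0.077).

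Slc25a12 and Slc25a13, the calcium-stimulated aspartate/glutamate carriers of the malate-aspartate shuttle, were called in different comparisons. Slc25a12 was at 166, 167, 159 and 173 CPM in AAV9-GFP sham and 158, 133, 154 and 139 CPM in TAC mice, a log2 fold change of -0.19 (SE 0.053, adjusted p = 0.025). The mice did not overlap, but the call was lost without AAV9-GFP sham replicate 1, 2 or 4 or TAC replicate 3 or 7, with adjusted p between 0.052 and 0.091. AAV9-Cardinal sham and TAC mice had 164, 174, 160.5 and 168 CPM and 154, 162, 159.6 and 165 CPM, which overlapped (adjusted p = 0.59). Slc25a13 was called with AAV9-Cardinal, where sham mice had 124, 114, 124 and 118 CPM and TAC mice 116, 103, 94.0 and 97.7 CPM, a log2 fold change of -0.22 (SE 0.062, adjusted p = 0.047). TAC replicate 1 overlapped the sham mice, and the call was lost in each fit that left out 1 mouse except that without TAC replicate 1 (adjusted p up to 0.15). Its AAV9-GFP values were 105, 117, 117 and 108 CPM and 99.99, 104, 103 and 95.5 CPM, where every TAC mouse was lower but the threshold was missed (adjusted p = 0.12). The shuttle enzymes Mdh1, Mdh2, Got1 and Got2 were all 4 called lower in AAV9-GFP TAC hearts, by 0.33, 0.25, 0.28 and 0.20 on the log2 scale, against 8.92% of all genes called lower there, and none of the 4 was called with AAV9-Cardinal. The AAV9-GFP call of Got1 was lost in 3 fits that left out 1 mouse and that of Got2 in 2.

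Slc25a45, a low-level relative of the basic amino acid carriers, rose in AAV9-GFP mice from 2.70, 2.64, 2.94 and 4.06 CPM to 4.59, 5.08, 3.98 and 4.30 CPM, a log2 fold change of 0.54 (SE 0.15, adjusted p = 0.023). TAC replicate 4, at 3.98 CPM, lay below sham replicate 4, at 4.06 CPM, and the call was lost without AAV9-GFP sham replicate 1, 2 or 3 or TAC replicate 3 (adjusted p 0.060 to 0.075). With AAV9-Cardinal the values overlapped, at 3.43, 4.04, 2.50 and 3.50 CPM after sham and 3.36, 2.91, 2.70 and 3.13 CPM after TAC. Slc25a22, a glutamate carrier, was not called, at 27.5, 22.1, 25.8 and 22.2 CPM and 24.8, 20.6, 21.4 and 23.5 CPM in AAV9-GFP sham and TAC mice and 28.8, 31.8, 27.1 and 30.7 CPM and 19.8, 24.9, 27.1 and 27.9 CPM in AAV9-Cardinal ones. Slc25a44, which carries branched-chain amino acids, had 13.8, 14.4, 15.7 and 13.8 CPM and 16.6, 14.9, 13.5 and 13.7 CPM with AAV9-GFP, and 14.7, 15.9, 15.1 and 14.1 CPM and 17.0, 14.1, 12.6 and 14.1 CPM with AAV9-Cardinal, with overlap in both. The glycine carrier Slc25a38 (10.2 to 13.6 CPM over all mice), Slc25a39 (49.7 to 63.8 CPM), Slc25a40 (7.01 to 10.5 CPM), the ornithine carrier Slc25a15, Slc25a29 and Slc25a47 were not called, although every AAV9-GFP TAC mouse was below every sham mouse for Slc25a38.

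The 10 measured carriers of cofactors, nucleotides and iron had 2 lower in AAV9-GFP TAC hearts, which is 20% of them. Over all genes, 17.4% were called there and 8.92% were called lower. With AAV9-Cardinal 1 was lower and 1 higher (20%, against 6.48% of all genes). Both AAV9-GFP calls were mitoferrins, which bring iron in for heme and iron-sulfur clusters. Mitoferrin-1, Slc25a37, was at 23.7, 22.5, 21.5 and 24.5 CPM in AAV9-GFP sham and 19.6, 20.3, 19.8 and 19.0 CPM in TAC mice, a log2 fold change of -0.23 (SE 0.054, adjusted p = 0.0088). AAV9-Cardinal sham and TAC mice had 23.5, 22.4, 24.8 and 23.9 CPM and 20.5, 20.4, 19.2 and 21.4 CPM, a log2 fold change of -0.21 (SE 0.054, adjusted p = 0.032). TAC and sham mice did not overlap with either vector. The AAV9-Cardinal call was lost without sham replicate 1, 3 or 4 or TAC replicate 4 or 5 of that vector (adjusted p 0.062 to 0.11). Mitoferrin-2, Slc25a28, had 17.8, 17.9, 17.9 and 15.2 CPM and 15.0, 12.9, 14.9 and 15.4 CPM in the AAV9-GFP groups, a log2 fold change of -0.24 (SE 0.074, adjusted p = 0.036), where the groups overlapped through sham replicate 4 at 15.2 CPM. This call was lost without AAV9-GFP sham replicate 1, 2 or 3 or TAC replicate 3 or 4 (adjusted p 0.055 to 0.13). In the AAV9-Cardinal groups it had 17.3, 16.5, 16.05 and 18.3 CPM and 12.9, 14.9, 14.9 and 14.3 CPM, with no overlap and adjusted p = 0.052, and it passed there without AAV9-GFP sham replicate 4 (0.037) or AAV9-GFP TAC replicate 3 (0.042), both of them mice of the other vector. Summed erythroid markers (4 genes), which mark cells that use mitoferrin-1, ranged from 311 to 633 CPM and from 327 to 766 CPM in AAV9-GFP sham and TAC hearts and from 305 to 400.3 CPM and from 256 to 588 CPM in AAV9-Cardinal ones, and none was called.

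The pyrimidine nucleotide carrier Slc25a36 was called higher with AAV9-Cardinal, from 32.2, 32.0, 34.8 and 36.6 CPM in sham to 38.7, 40.8, 46.8 and 50.2 CPM in TAC mice, a log2 fold change of 0.38 (SE 0.11, adjusted p = 0.045), with no overlap. The call was lost in 10 of the 16 fits that left out 1 mouse (adjusted p 0.053 to 0.13), namely any AAV9-Cardinal sham mouse, AAV9-Cardinal TAC replicate 4, 5 or 6, or AAV9-GFP sham replicate 1, 2 or 3. It was also lost with the GC offset (log2 fold change 0.36, adjusted p = 0.071) and without an expression filter (0.076). AAV9-GFP mice had 34.2, 34.3, 33.9 and 41.7 CPM and 33.5, 40.7, 32.7 and 43.2 CPM, which overlapped. The log2 ratio of Slc25a33, the other pyrimidine nucleotide carrier, to Slc25a36 was -0.74 ± 0.20 in AAV9-Cardinal sham and -1.59 ± 0.42 in TAC hearts with no overlap, and -0.91 ± 0.35 and -1.42 ± 0.48 with AAV9-GFP, with overlap (SD, n = 4). Slc25a33 itself was not called, with a log2 fold change of -0.46 with AAV9-Cardinal (edgeR adjusted p = 0.23) and -0.42 with AAV9-GFP (0.21). Its exons share 14.9% of their bases with Gm13068 on the other strand. The NAD carrier Slc25a51 (45.0 to 50.7 CPM), the outer membrane protein Slc25a46 (55.0 to 65.7 CPM), the S-adenosylmethionine carrier Slc25a26 (13.0 to 17.6 CPM) and the folate carrier Slc25a32 (11.8 to 14.7 CPM) were not called. Every AAV9-GFP TAC mouse was nevertheless above every sham mouse for Slc25a46 and Slc25a51, and every AAV9-Cardinal TAC mouse was below every sham mouse for Slc25a26. Slc25a32 passed in the AAV9-GFP comparison without AAV9-GFP sham replicate 1 (edgeR adjusted p = 0.022) or AAV9-Cardinal sham replicate 1 (0.049).

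**Figure D4:**
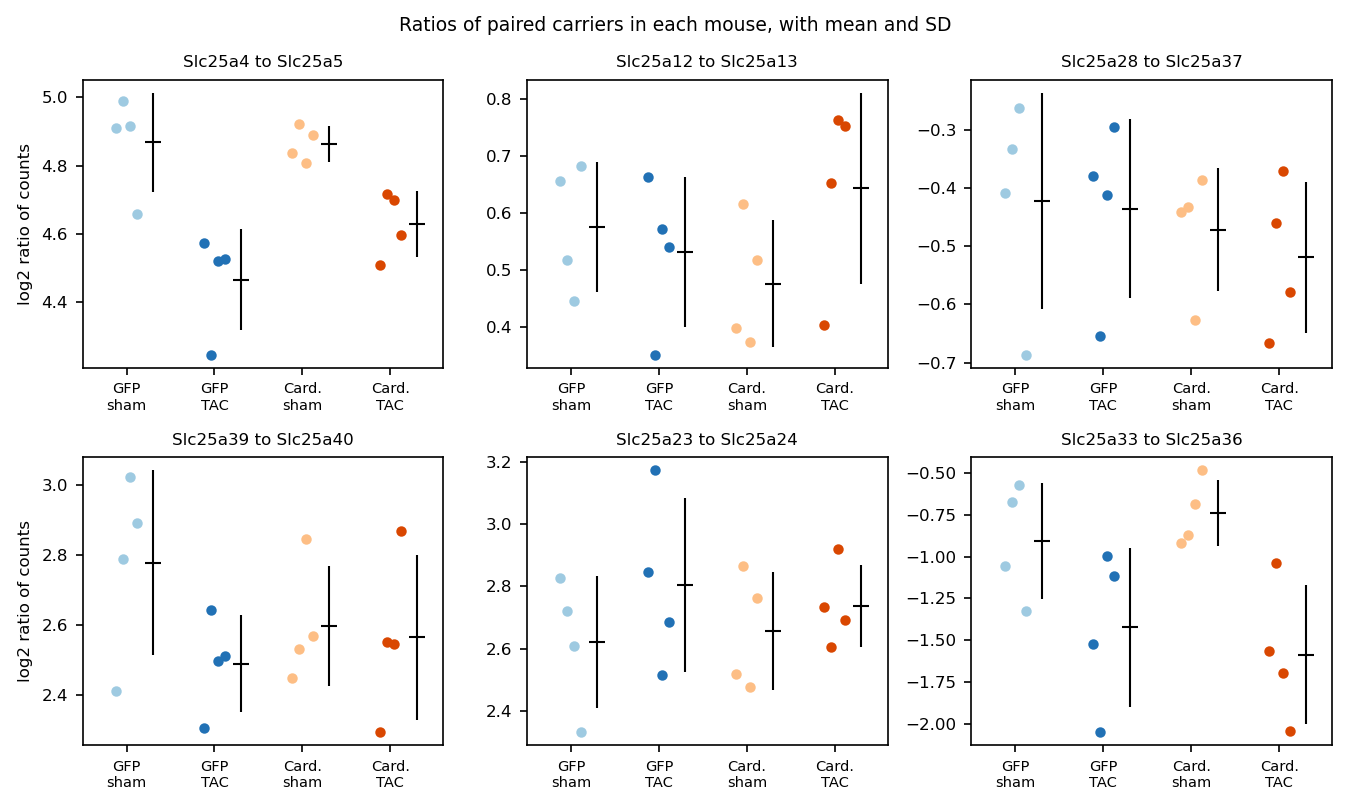
Log2 ratio of the counts of 2 related carriers within each library, for 6 pairs; points are mice and the bar is the mean with SD (n = 4), and each panel has its own axis. TAC and sham mice are separate for Slc25a4 to Slc25a5 with both vectors and for Slc25a33 to Slc25a36 with AAV9-Cardinal, and overlap in the other panels.

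The other ratios overlapped between TAC and sham mice with both vectors. These were Slc25a12 to Slc25a13 (group means 0.48 to 0.64 on the log2 scale), Slc25a28 to Slc25a37, Slc25a39 to Slc25a40 and Slc25a23 to Slc25a24.

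Outside the family, the genes that place carriers in the membrane and move solutes beside them were taken as 3 lists, whose shares called can be set beside the 17.4% of all genes called with AAV9-GFP and the 6.48% with AAV9-Cardinal. Of the 13 genes that import carriers, 1 rose in AAV9-GFP TAC hearts, Timm22, the core of the carrier translocase (log2 fold change 0.33, SE 0.077, edgeR adjusted p = 0.0082), and 1 with AAV9-Cardinal, the receptor Tomm70a (0.26, SE 0.071, adjusted p = 0.044), whose call was lost in 9 fits that left out 1 mouse (0.054 to 0.12). Among 6 genes of the outer membrane and ADP/ATP exchange, the channels Vdac1 and Vdac3 fell by 0.30 and 0.31 on the log2 scale and Tspo rose by 0.59 in AAV9-GFP TAC hearts, and none was called with AAV9-Cardinal. The 19 other inner membrane transporters and carrier relatives had Mpc2, a subunit of the pyruvate carrier, and the transporter Abcb8 lower and the sideroflexin Sfxn3 higher with AAV9-GFP, and Abcb8 and Sfxn1 lower with AAV9-Cardinal. The AAV9-Cardinal call of Sfxn1 was lost in 6 fits that left out 1 mouse (adjusted p 0.076 to 0.12) and with DESeq2 (0.11), and that of Abcb8 in 5 such fits (0.053 to 0.083). The AAV9-GFP call of Mpc2 was lost in 1 (0.052). The uniporter Mcu was not called in either comparison.

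The vectors were then compared directly. In TAC hearts, none of the 41 carriers passed the threshold between AAV9-Cardinal and AAV9-GFP with edgeR, against 0.101% of all genes, that is 17 genes. 11 carriers had an unadjusted p under 0.05, a count not made over all genes, and DESeq2 called 1, Slc25a3. The lowest adjusted p values with edgeR were 0.11 for Slc25a45, 0.12 for Slc25a3 and 0.15 for Slc25a11. Slc25a3 was higher by 0.18 on the log2 scale (SE 0.051) and Slc25a11 by 0.15 (SE 0.047) with AAV9-Cardinal, and the groups overlapped through AAV9-Cardinal TAC replicate 1, the mouse with the highest fibroblast markers of its own group. Without that mouse both passed, Slc25a3 with a log2 fold change of 0.22 (edgeR adjusted p = 0.021) and Slc25a11 with 0.19 (adjusted p = 0.028). Slc25a45 had a log2 fold change of -0.57 (SE 0.15), and every AAV9-Cardinal TAC mouse was below every AAV9-GFP TAC mouse. The mice did not overlap for 4 carriers (9.76%), Slc25a45 and Slc25a32 lower and Slc25a34 and Slc25a46 higher, against 6.77% of all genes. The median over the carriers was 0.03 and over all genes -0.0065. Over the 16857 genes, this log2 fold change was related to GC content (Spearman rho -0.24, and -0.015 with the GC offset). With that offset 0 carriers were called. These values share the AAV9-GFP TAC mice with the TAC comparison above. None of the cell type markers was called between the vectors, while the median log2 fold change was 0.23 over the cardiomyocyte and -0.57 over the fibroblast markers; their part in the carrier values was not tested. In the partner lists Vdac3 was called, higher by 0.21 (SE 0.035, edgeR adjusted p = 0.043), and this call was lost in 12 fits that left out 1 mouse (0.054 to 0.18).

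In sham hearts, none of the 41 carriers was called between the vectors by edgeR or DESeq2, against 0.0119% of all genes with edgeR. 2 carriers had an unadjusted p under 0.05, a count not made over all genes. These were Slc25a22, with a log2 fold change of 0.28 (SE 0.10), and Slc25a34 with 0.22 (SE 0.089), both at an edgeR adjusted p of 1.0. Slc25a34 was the 1 carrier (2.44%) whose mice did not overlap, against 2.36% of all genes. The median over the carriers was 0.0045.

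**Figure D5:**
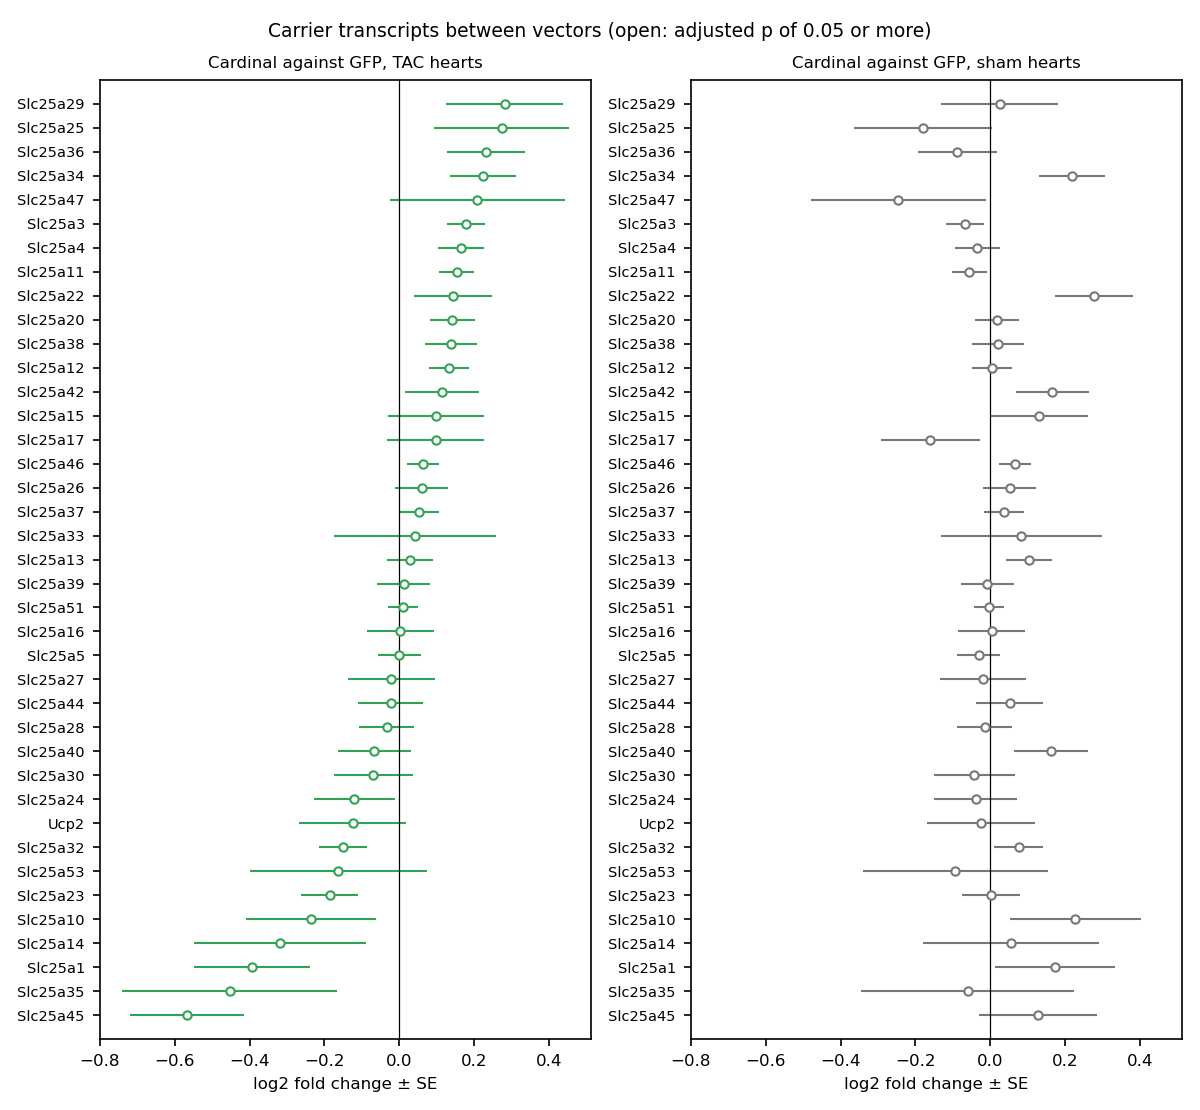
Difference between the vectors, as the log2 fold change of AAV9-Cardinal over AAV9-GFP with its standard error, for 39 carriers in TAC hearts (left) and sham hearts (right), ordered by the value in TAC hearts; Slc25a31 is not drawn. All points are open because none passed the threshold, and Slc25a45 is the lowest on the left at -0.57.

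The difference in TAC response between the vectors was tested as an interaction. None of the 41 carriers passed with edgeR or DESeq2, against 0.0119% of all genes with edgeR. 7 carriers had an unadjusted p under 0.05, a count not made over all genes. The lowest edgeR adjusted p was 0.31, for Slc25a3, whose TAC response differed by 0.25 on the log2 scale (SE 0.072). Slc25a45 differed by -0.69 (SE 0.22) and Slc25a11 by 0.21 (SE 0.066). For Slc25a42, Slc25a34, Slc25a37 and Slc25a5, called with both vectors, the responses with AAV9-GFP and AAV9-Cardinal were -0.54 and -0.59, -0.42 and -0.42, -0.23 and -0.21, and 0.26 and 0.29. Neither a called difference nor equal responses can be read from these tests at 4 mice per group.

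Summed over the family, carriers took 5144 to 5488 CPM in AAV9-GFP sham, 4484 to 5097 CPM in AAV9-GFP TAC, 5058 to 5413 CPM in AAV9-Cardinal sham and 4867 to 5508 CPM in AAV9-Cardinal TAC hearts. Without Slc25a4 and Slc25a3, which give most of the sum, the ranges were 1452 to 1497, 1337 to 1383, 1487 to 1524 and 1386 to 1476 CPM. On this second sum TAC mice lay below sham mice of the same vector without overlap. On the first sum this held with AAV9-GFP only, and the AAV9-Cardinal groups overlapped. No test was made of either sum.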

How the data were processed

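Single-end reads of poly(A) RNA came from the apex of 16 hearts, and the authors deposited 1 matrix of raw counts per gene, not normalized, in which each of the 16 columns carries the name of 1 mouse; 0 columns were left unused. The submitters' processing notes list FastQC, HISAT2 2.1.0, edgeR 3.26.1 and the genome build GRCm38, without roles. The counting program, its annotation and its handling of strand and of reads with several matches were not given in the sources used here. Symbols and loci were taken from a GRCm38 annotation, which named 55394 of the 55573 identifiers and left 179 unnamed.

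Counts were fitted with edgeR 4.0.16 in R 4.3.3 over all 16 mice and 4 groups, with filterByExpr (16857 genes), TMM normalization, a quasi-likelihood test and Benjamini-Hochberg adjustment over all genes tested, at a threshold of 0.05. P-values measure the spread between mice (common coefficient of variation 0.1276). CPM values use TMM library sizes. Fold changes come from the fit, levels per kilobase use the union of exons, and ratios use the log2 counts of 2 genes in 1 library, each plus 1. "No overlap" means that every mouse of 1 group lay beyond every mouse of the other. Totals of 16441997 to 21904589 counts per mouse set the precision. The scripts were tested on simulated data.

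Values per mouse are given for every carrier past the threshold with an absolute log2 fold change of at least 0.3 and for 16 carriers of central substrates; the values per mouse of Slc25a36, Slc25a45, Slc25a34 and Slc25a23 follow from the first part. Substrate lists, partner lists (47 genes, all tested) and marker lists, like the members themselves, were chosen with earlier results of these data known. The values of 1 carrier that is counted in the totals are not reported here. Carriers without a promoter in the RefSeq table are named only. The alternatives were DESeq2 1.42.0, its size factors in edgeR, 2 other count filters, only the 8 mice compared, a robust fit, a fit without mitochondrially encoded genes, a block for the mouse number and leaving out each mouse; an offset for GC content was chosen after seeing the data.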

Additional observations from a re-analysis of the deposited data

Results flagged for a closer look

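In 8 of 76 groups of 4 mice, over 19 carriers, 1 mouse lay far from the other 3 by Dixon's criterion, where chance gives about 3.8 (1 group in 20). Of the AAV9-Cardinal TAC mice, replicate 1 had 2641 CPM of Slc25a4 and the other 3 had 3021 to 3064 CPM, and that mouse also had 931 CPM of summed fibroblast markers against 499.8 to 544 CPM. In AAV9-GFP sham replicate 4, the mouse with 249 CPM of smooth muscle markers, Slc25a28 was at 15.2 CPM (the others at 17.8 to 17.9), Slc25a34 at 76.1 CPM (97.6 to 102) and Slc25a36 at 41.7 CPM (33.9 to 34.3). The part of these markers in the carrier values was not tested.

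The Slc25a5 level of AAV9-Cardinal TAC replicate 6 was 127 CPM, against 116 CPM in each of the other 3 mice. Slc25a23 was at 47.9 CPM in AAV9-Cardinal sham replicate 4 (the others at 42.2 to 43.0) and, after TAC, at 41.7 CPM in replicate 4 of that vector (49.4 to 50.7). Slc25a42 was at 72.7 CPM in AAV9-Cardinal sham replicate 2 (61.8 to 62.9).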

How the results depend on the processing

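With AAV9-GFP, 11 carriers were called after TAC and 8 to 12 under the alternatives; Slc25a11, Slc25a20, Slc25a23, Slc25a3, Slc25a34, Slc25a37, Slc25a42 and Slc25a5 were called under every one of the 25 run. With AAV9-Cardinal, 6 were called. The count was 3 without an expression filter, 7 with DESeq2, 4 with only the 8 mice compared and 5 with the GC offset. It was 3 to 6 when each mouse was left out, and Slc25a34, Slc25a42 and Slc25a5 were called in all of these. With the replicate block 0 were called, and these carriers were lost too (edgeR adjusted p = 0.23 for Slc25a34, 0.094 for Slc25a42 and 0.13 for Slc25a5). That block also set aside AAV9-Cardinal TAC replicates 5 and 6, whose numbers no other mouse had. Between the vectors in TAC hearts, 0 were called with edgeR, 1 with DESeq2 (Slc25a3, adjusted p = 0.030) and 0 to 2 when each mouse was left out, 2 only without AAV9-Cardinal TAC replicate 1. In sham hearts and for the difference in response, 0 were called under each alternative. Slc25a38 passed with AAV9-GFP under the GC offset (adjusted p = 0.049). Without an expression filter the calls of Slc25a28 with AAV9-GFP and of Slc25a13, Slc25a36 and Slc25a37 with AAV9-Cardinal were lost, with only the 8 mice compared those of Slc25a12 and Slc25a28 with AAV9-GFP and of Slc25a13 and Slc25a37 with AAV9-Cardinal, and with the GC offset that of Slc25a36. No named gene changed direction. The causes of these changes were not tested.

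Mouse numbers recur across groups, and 4 of 16 same-numbered pairs had a correlation of deviations over 0.1 (median 0.054). All 4 were among the 6 pairs of mice numbered 1 (0.067 to 0.21). Of the 80 pairs with different numbers, 4 were over 0.1 (median -0.013). 5 of 16 mice correlated best with their own number. AAV9-Cardinal TAC replicates 5 and 6 and AAV9-GFP TAC replicate 7 had no same-numbered mouse, so they could not. Since not every pair was over 0.1, a rule that a partial link also fails, the numbers were not taken to pair the mice. The AAV9-Cardinal calls depend on this choice. The block, however, fits each number with its own term, so a mouse alone in its number adds nothing to the comparison. For the AAV9-Cardinal calls, pairing and the loss of such mice cannot be told apart. A link among the mice numbered 1 was not tested. With the replicate block, 8 carriers were called with AAV9-GFP and 0 with AAV9-Cardinal. Depth limits Slc25a31 and the 8 carriers under the minimum.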
